A study of Mus musculus with 3 samples.

Results

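The SLC25 family is the set of carrier proteins that move nucleotides, phosphate, iron, glutathione, acylcarnitines, amino acids and carboxylates across the inner mitochondrial membrane. Most members exchange a solute of the matrix for one of the intermembrane space, so that respiration, fatty acid oxidation, heme synthesis and Fe–S cluster assembly each depend on particular carriers. Skeletal muscle is rich in the carriers that serve oxidative phosphorylation, and several solutes are served by a muscle form and by a form typical of other tissues. The family was measured here in gastrocnemius muscle of male C57BL/6J mice. Its members were chosen by name alone, as every probe set (a group of short probes against 1 transcript) whose single gene symbol was Slc25a followed by a number. The rule found 44 genes with 93 probe sets, out of 18193 genes and 45101 probe sets. Of these genes, 21 had 1 probe set and 23 had several. Each carrier is described by the probe set with the highest mean log2 signal, called its brightest, and its other probe sets served as a check. Of 47 family genes in the RefSeq mouse table, the other 3 were not analysed here.

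Mice were given a control diet with 10% kcal fat (Control), a diet with 60% kcal fat (HF), or that high-fat diet plus sodium ferrous citrate at 0.023% by weight (HF + SFC), from 6 weeks of age for 15 weeks. The sample labels instead give an age of 21 months for all groups. Each group was 1 Affymetrix GeneChip array of a mix of its samples, 3 arrays in all, and the number of mice in a mix is not given in the sources used here. HF + SFC is compared with HF and HF with Control, so both comparisons share the HF array, and a high or low reading there enters both with opposite signs. No group received SFC with the control diet. With 1 pooled sample per group there is no replicate check, so no statistical test was run and every difference below compares these arrays.

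Values are MAS5 signals on a linear scale, and the medians of the Control, HF and HF + SFC arrays were 63.6, 67.4 and 68.0. The brightest probe set of 35 carriers lay above the array median on all 3 arrays, and that of 9 did not. The 3' to 5' ratio of the beta-actin control probe sets was 1.09, 1.52 and 1.15 in Control, HF and HF + SFC, and that of Gapdh 0.842, 0.832 and 0.820. All 11 fast fibre markers, such as Myh4 (49066, 44593 and 51107), lay above the array median on all arrays. In HF against Control, all 11 fast fibre markers and 9 of 10 slow fibre markers were lower (median log2 ratios -0.14 and -0.44), whereas all 8 adipocyte markers measured were higher (median 1.12). Between HF + SFC and HF the medians of these lists were 0.22, 0.39 and -0.54. Fast fibre markers read near the top of the scale, and Tnnt3 gave the highest signal of each array (61584, 57775 and 66676). The medians of the marker lists were not recomputed under another scaling, so whether their directions depend on it was not tested. Summed signals in Control, HF and HF + SFC were 502925, 460545 and 538951 for fast fibre markers, 134285, 107890 and 133505 for slow fibre markers, and 71043, 85624 and 82022 for adipocyte markers. Most of the adipocyte sum came from Car3 (47690, 51953 and 51978) and Fabp4 (21626, 26497 and 25306), so it hardly reflects the dimmer markers. Among those, Adipoq had 901, 4637 and 2915 and Lep 45.8, 592 and 387. No marker of these lists was at 0, and their part in the carriers' differences was not tested. In such tissue samples, fewer cells of a type and less RNA per cell cannot be told apart.

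On their brightest probe sets the carriers were about evenly divided in direction. In HF against Control, 22 carriers were higher and 22 lower (median log2 ratio 0.01), against 50.7% of all genes higher and a median of 0.01. The numbers for HF + SFC against HF were 21 higher and 23 lower (median -0.02), against 51.4% higher and 0.01 over all genes. The division was less even between HF + SFC and HF when dimmer probe sets counted. Over all 93 probe sets 38 were higher and 55 lower, and with the mean of the probe sets of each carrier 15 were higher and 29 lower (34.1% higher, median -0.07), against 50.6% of all probe sets and 50.7% of all genes higher. The same counts in HF against Control were 52 higher and 41 lower, and 25 higher and 19 lower, against 51.9% of all probe sets and 52.7% of all genes higher. Probe sets of 1 carrier are not independent, and Slc25a5 gave 8 of the 55 that were lower in HF + SFC than in HF. Of the 31 probe sets other than the brightest that were above the array median, 10 were higher in that comparison and 21 lower. Those 21 include every probe set of Slc25a5 but its brightest, and the matching share over all genes was not computed. Relative to Control, 19 carriers were higher in HF + SFC and 25 lower on the brightest probe set (median -0.05), against 52.4% of all genes higher. Among the 35 carriers above the array median, 18 were higher in HF against Control, 16 in HF + SFC against HF and 17 in HF + SFC against Control.

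A threshold of 1.5-fold, which the study also used, was passed by a minority of carriers and of all genes. In HF against Control, 5 carriers passed this threshold upward and 6 downward, while 17.0% and 12.2% of all genes did. For HF + SFC against HF, 4 passed upward and 5 downward, beside 13.7% and 13.5% of all genes. For HF + SFC against Control, 3 passed upward and 5 downward, beside 16.5% and 12.4%. Among carriers above the array median the counts were 3 higher and 2 lower in HF against Control, where the share of all such genes was 4.12% and 2.32%. They were 1 higher and 3 lower in HF + SFC against HF (1.65% and 2.52% of all such genes), and 1 higher and 3 lower in HF + SFC against Control (3.06% and 2.61%). Whether the family differs from other genes in these counts was not tested.

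**Figure D1:**
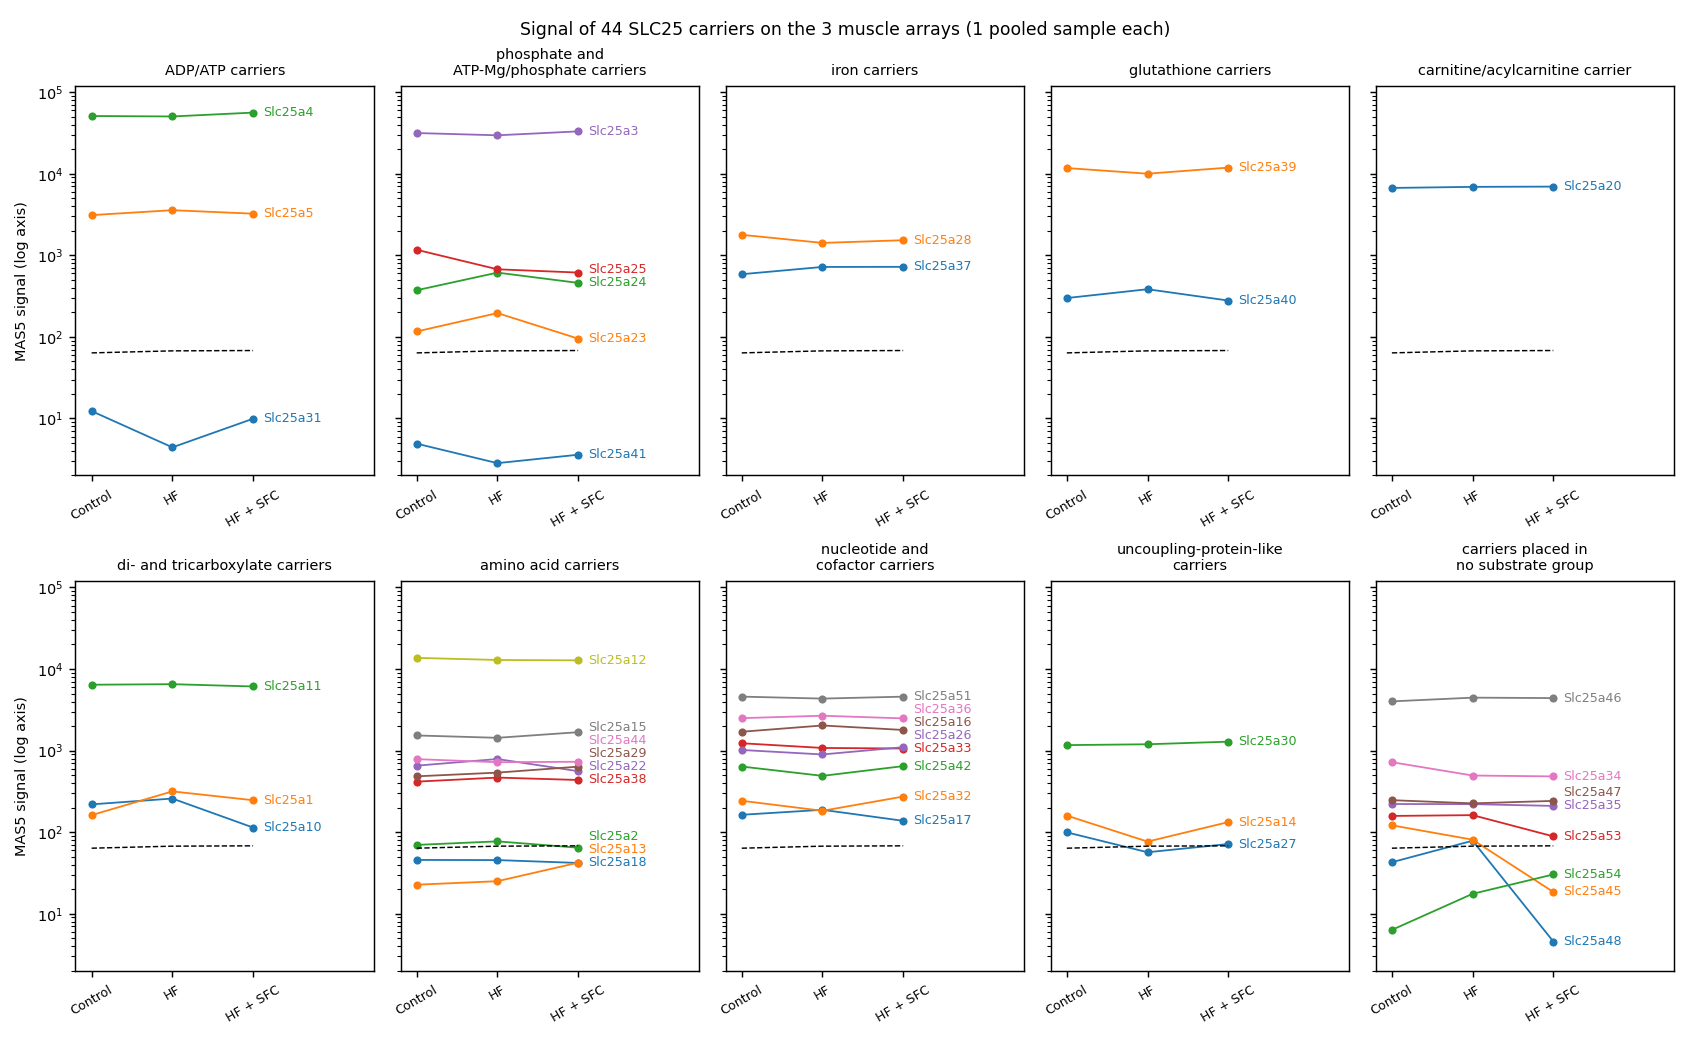
MAS5 signal (log axis) of the 44 carriers on the Control, HF and HF + SFC arrays, 1 point per pooled sample, in panels by the solute carried; the dashed line is the array median. Most lines are nearly flat, as that of Slc25a20 (6698, 6905 and 6956), and the steepest lies near or under the dashed line, that of Slc25a48 (42.8, 78.6 and 4.57).

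The ADP/ATP carriers bring ADP into the matrix and ATP out, and Slc25a4 is the form of heart and skeletal muscle. On its brightest probe set Slc25a4 read 51022, 50370 and 56175 (here and below, values run from Control to HF to HF + SFC), with log2 ratios of -0.02 in HF against Control and 0.16 in HF + SFC against HF. The next 2 probe sets, at 41835, 43929 and 48309 and at 40780, 41620 and 44420, also read highest in HF + SFC. The dimmest had 1020, 1325 and 884 and read lowest there. All but the dimmest read near the top of the scale, like the fast fibre markers, and how ratios behave at such signals was not tested. After quantile normalization, which gives the arrays 1 common distribution, the log2 ratio of Slc25a4 in HF + SFC against HF was -0.01, so that its direction depends on the scaling.

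Slc25a5, the form found across many other tissues and in dividing cells, had 3111, 3574 and 3240 on its brightest probe set. It was the carrier with most probe sets, 8, all above the array median. All 8 read higher in HF than in Control, with log2 ratios from 0.20 to 0.89 (median 0.37). All 8 then read lower on the HF + SFC array relative to HF, with log2 ratios from -0.75 to -0.14 (median -0.30). Relative to Control, 7 of the 8 were higher in HF + SFC, with a median of 0.07. The probe sets read the same pooled samples and are not replicates, and 6 of them carry the suffix of sets that can bind several transcripts. The brightest probe set passed 1.5-fold in neither comparison. Adipocyte markers differed in the same directions as Slc25a5 in these comparisons (medians 1.12 and -0.54), as did fibroblast and matrix markers (0.44 and -0.11). In HF + SFC against Control the medians of these lists were 0.79 and 0.33, beside 0.07 for Slc25a5. The part of these cells was not tested. Slc25a31, a form of the testis, read 12.3, 4.42 and 9.92, far below the array medians.

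**Figure D2:**
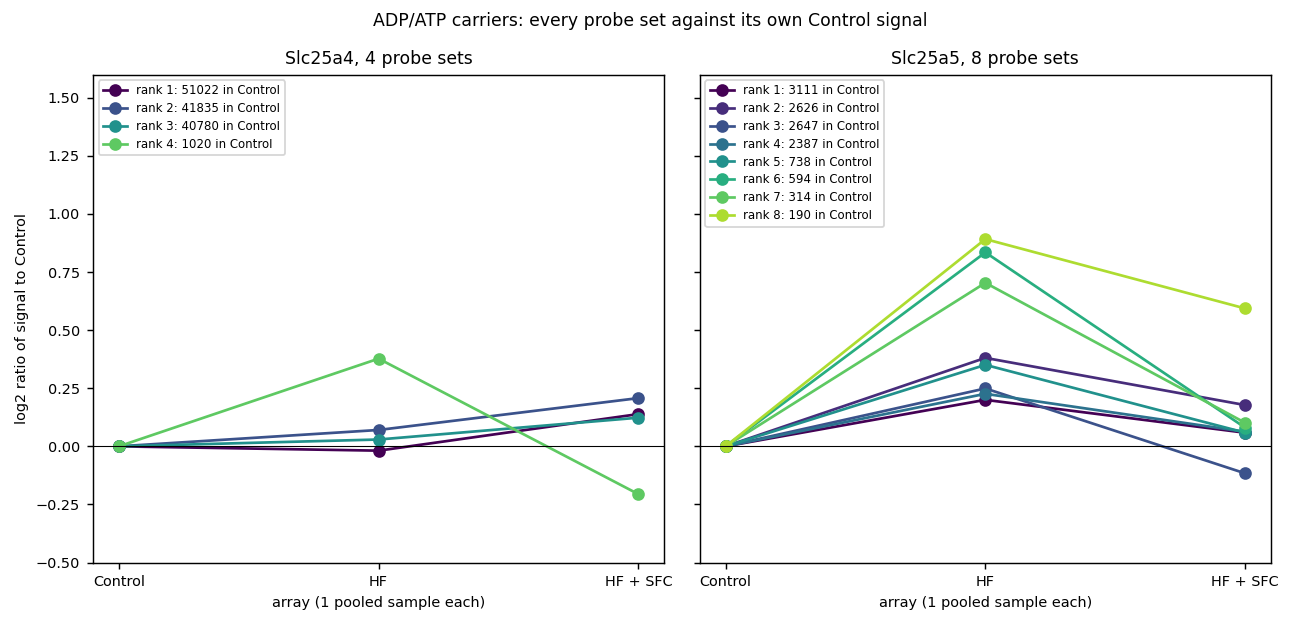
Log2 ratio of each probe set to its own Control signal for Slc25a4 (4 probe sets) and Slc25a5 (8 probe sets) on the 3 arrays, with probe sets ranked by mean signal. All 8 lines of Slc25a5 peak in HF, while 3 of 4 lines of Slc25a4 are highest in HF + SFC.

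The promoter windows of these carriers, and of Slc25a25 and Slc25a34, are given to show what sequence lies at their start sites. Slc25a25 and Slc25a34 had lower signals on both high-fat arrays than in Control, but so had carriers not printed here. Among those, Slc25a12, Slc25a28 and Slc25a33 had neither a cAMP response element nor an ERR element in their windows. A link between these elements and the signals was not tested. Windows hold 250 bases before and 50 after the start, from RefSeq on GRCm38.p6, in the direction of transcription. Slc25a4 lies at chr8:46211013-46211312 (minus strand), Slc25a5 at chrX:36795347-36795646 (plus strand), Slc25a25 at chr2:32424017-32424316 (minus strand, 1 of its 3 windows) and Slc25a34 at chr4:141623785-141624084 (minus strand). Capitals mark the GC box (GGGCGG), the cAMP response element (TGACGTCA) or the ERR element (AAGGTCA), each on either strand.
Slc25a4: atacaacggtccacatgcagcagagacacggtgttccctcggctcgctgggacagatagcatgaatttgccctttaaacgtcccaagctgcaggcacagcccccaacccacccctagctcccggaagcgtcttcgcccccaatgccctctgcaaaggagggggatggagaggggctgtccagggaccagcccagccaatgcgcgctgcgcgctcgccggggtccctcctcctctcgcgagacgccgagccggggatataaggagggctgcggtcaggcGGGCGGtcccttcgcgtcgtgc
Slc25a5: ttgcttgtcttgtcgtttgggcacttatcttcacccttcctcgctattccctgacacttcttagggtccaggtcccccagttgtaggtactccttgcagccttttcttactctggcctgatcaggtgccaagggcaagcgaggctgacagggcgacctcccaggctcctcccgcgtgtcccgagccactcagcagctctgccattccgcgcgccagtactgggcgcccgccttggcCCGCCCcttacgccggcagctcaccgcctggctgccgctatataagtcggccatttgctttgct
Slc25a25: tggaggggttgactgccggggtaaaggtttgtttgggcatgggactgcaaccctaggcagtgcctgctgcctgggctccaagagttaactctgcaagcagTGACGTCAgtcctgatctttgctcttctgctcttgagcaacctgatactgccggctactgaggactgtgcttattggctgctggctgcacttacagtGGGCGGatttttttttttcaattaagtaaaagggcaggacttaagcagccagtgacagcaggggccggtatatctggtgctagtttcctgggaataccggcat
Slc25a34: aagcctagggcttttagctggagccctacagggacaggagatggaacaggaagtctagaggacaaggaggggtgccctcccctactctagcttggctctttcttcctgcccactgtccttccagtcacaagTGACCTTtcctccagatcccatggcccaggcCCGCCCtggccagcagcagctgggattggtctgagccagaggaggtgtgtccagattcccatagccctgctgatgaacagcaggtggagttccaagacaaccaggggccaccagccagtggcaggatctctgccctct

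A promoter window was matched for 34 of 44 carriers, 43 windows in all. At least 1 GC box was present in windows of 29 carriers (37 of 43 windows), against 35.7% of all 32851 windows of the table, which also holds non-coding genes. The cAMP response element was found in 2 of 43 windows, of Slc25a25 and Slc25a36, against 1.79% of all windows. It lies in the printed window of Slc25a25, and the other windows of that gene held none. The ERR element was found in 1 of 43 windows, that of Slc25a34, against 4.72% of all windows. The NRF-1 motif was found in 2 of 43 windows, of Slc25a3 and Slc25a31, against 4.60% of all windows. The E-box (CACGTG) was found in 8 of 43 windows, of 7 carriers, among them Slc25a1 and Slc25a14, against 7.15%. The sterol element (TCACNCCAC) was found in 1 of 43 windows, that of Slc25a18, against 1.24%. These are matches of letters, and no binding was measured.

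Phosphate enters the matrix through Slc25a3, which had 31554, 29600 and 33059. It was lowest in HF, by log2 ratios of -0.09 against Control and 0.16 in HF + SFC against HF, and the latter was 0.04 after quantile normalization. The calcium-regulated ATP-Mg/phosphate carriers, which set the adenine nucleotide content of the matrix, went both ways. Slc25a25 had 1169, 674 and 615, lower than Control by 1.74-fold in HF and 1.90-fold in HF + SFC. Slc25a25 and Slc25a14 were the carriers above the array median that were at least 1.5-fold lower in HF. Among genes of like signal the middle 95% of log2 ratios in HF against Control ran from -0.47 to 0.51, and Slc25a25, at -0.80, lay below that range. Other carriers, such as Slc25a1 (0.97), Slc25a24 (0.72) and Slc25a34 (-0.54), also lay outside the ranges for their signals in that comparison. The next probe set of Slc25a25 read 240, 240 and 114 and its dimmest 17.6, 45.4 and 10.5, so that the lower HF signal rests on the brightest probe set. The other ATP-Mg/phosphate carriers above the median were highest in HF. Slc25a24 had 373, 614 and 459 (1.64-fold higher in HF than in Control), and its dim probe set had 33.0, 23.3 and 64.0. Slc25a23 had 116, 196 and 95.2, 1.68-fold above Control in HF and 2.06-fold below HF in HF + SFC, on its only probe set. Its log2 ratio in HF against Control, 0.75, lay inside the range of genes of like signal (-0.797 to 1.015). That in HF + SFC against HF, -1.04, lay below the range there (-0.868 to 0.769). Slc25a41 read 4.91, 2.83 and 3.59, near the bottom of the scale.

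Iron enters mitochondria for heme and Fe–S cluster synthesis through the mitoferrins. Slc25a28, the broadly expressed mitoferrin 2, had 1784, 1419 and 1531, lower on both high-fat arrays. Slc25a37, mitoferrin 1, best known from red blood cell precursors, had 586, 720 and 722, higher on both. The carriers thus differed from Control in opposite directions in HF, with log2 ratios of -0.33 and 0.30, and neither reached 1.5-fold. Both ratios lay inside the central range of genes of like signal, as used above for Slc25a25. That range ran from -0.40 to 0.50 for Slc25a28 and from -0.47 to 0.51 for Slc25a37. Neither difference was thus set apart from those of other genes at its signal. With iron added to the diet, the ratios to HF were 0.11 for Slc25a28 and 0.00 for Slc25a37. Each had 1 probe set under its own symbol alone, and a further probe set that the annotation gives to Slc25a37 and another gene was not used. Among 5 erythroid markers measured, Alas2 was the one above the array median on all arrays (141, 160 and 103). The summed signal of the 5 was 225, 284 and 291, and it includes the dim ones. Of these, Hba-a1 (1.47, 4.585 and 49.7) and Epb42 (1.35, 3.77 and 26.8) were highest in HF + SFC. Klf1 (35.4, 85.1 and 78.8) was highest in HF and Slc4a1 (45.2, 30.2 and 32.4) in Control. The part of erythroid cells in the Slc25a37 values was not tested. Slc25a38, which brings in glycine for the first step of heme synthesis, had 416, 467 and 436.

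Glutathione, the main thiol that guards mitochondria against oxidation, enters through Slc25a39 and Slc25a40. Slc25a39 had 11743, 10010 and 11890 on its brightest probe set, lowest in HF, with log2 ratios of -0.23 against Control and 0.25 in HF + SFC against HF. Its other bright probe sets did not share this order. They read 4266, 4171 and 3477, then 1216, 1495 and 1203, then 862, 968 and 1097, so that HF + SFC was below HF on 2 of them and above it on 1. Its dimmest read 7.42, 13.2 and 8.24. Slc25a40 had 299, 384 and 279, highest in HF, with log2 ratios of 0.36 and -0.46, on 1 probe set.

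Slc25a20 carries acylcarnitines into the matrix for beta-oxidation and returns free carnitine. It had 6698, 6905 and 6956 on its brightest probe set and 3031, 3557 and 3417 on the other. Log2 ratios in HF against Control were 0.04 and 0.23, and in HF + SFC against HF 0.01 and -0.06. The carnitine acyltransferases Cpt2 (2926, 3423 and 3286) and Crat (6145, 6037 and 6716), which work on the matrix side, also stayed within 1.5-fold. Ratios of this size lie inside the middle 95% of all genes at similar signal, as the plot of log2 ratio against signal shows.

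**Figure D3:**
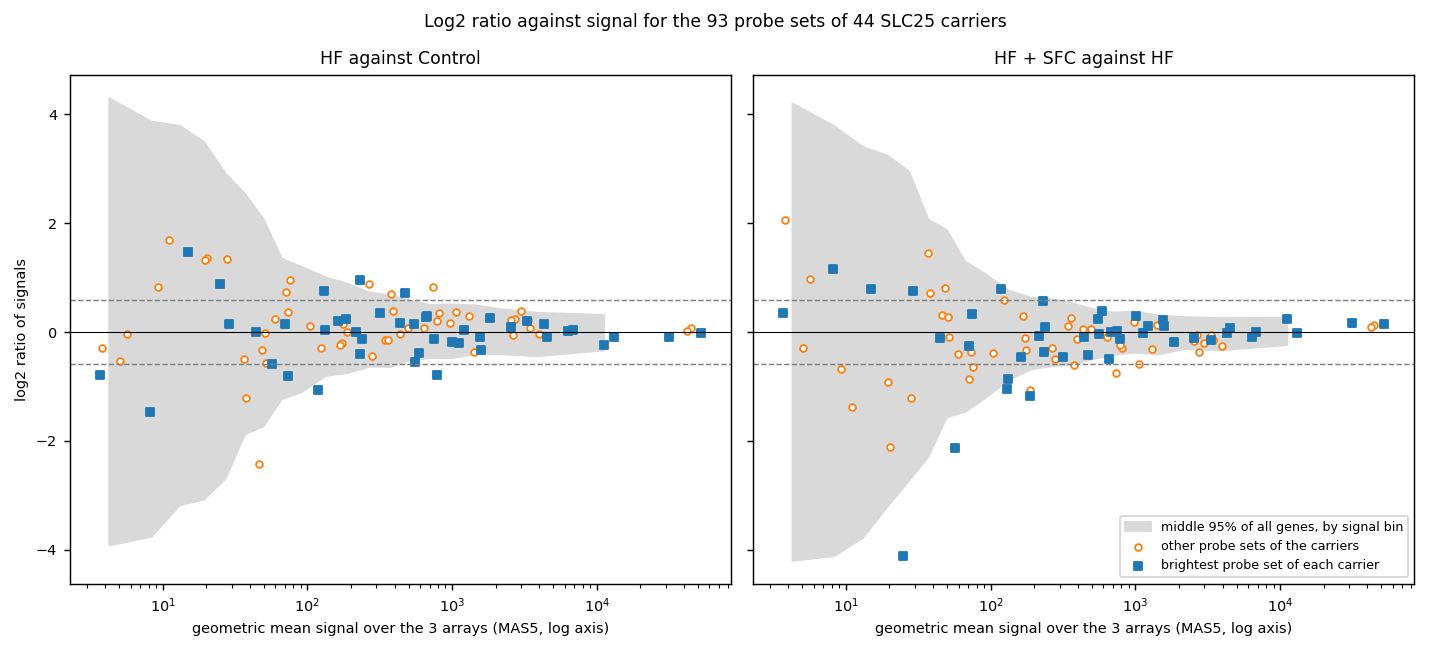
Log2 ratio of signals against the geometric mean signal over the arrays (MAS5, log axis) for the 93 probe sets, with squares for the brightest probe set of each carrier, circles for the others and a grey band for the middle 95% of all 18193 genes in 20 bins of signal. The band narrows as the signal grows, and most of the points past 1.5-fold (dashed) lie at low signal.

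All 3 carboxylate carriers measured read highest in HF. Slc25a1, which exports citrate for fatty acid and sterol synthesis, had 162, 316 and 247, above Control by 1.95-fold in HF and 1.52-fold in HF + SFC. It had the highest log2 ratio, 0.97, of carriers above the array median in HF against Control. Slc25a10, the dicarboxylate carrier, had 219, 259 and 114, 2.27-fold below HF in HF + SFC. Its dimmer probe set read 131, 24.5 and 30.4, with Control highest and HF lowest. Both genes are known from fat tissue and liver, and adipocyte markers were higher in HF than in Control (median 1.12). In HF + SFC against Control the adipocyte median was still 0.79. There Slc25a1 was above Control, but Slc25a10 was 1.92-fold below it. The part of adipocytes in these values was not tested. Slc25a11, which exchanges oxoglutarate for malate in the malate-aspartate shuttle, had 6423, 6524 and 6116, log2 ratios of 0.02 and -0.09.

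Among 9 amino acid carriers, none reached 1.5-fold in HF against Control and 1 did in HF + SFC against HF. Slc25a12, the aspartate/glutamate carrier of muscle and brain, had 13710, 12919 and 12779, and its next probe set 1628, 1256 and 1381. Slc25a13, the liver form, read 22.7, 25.1 and 42.3, 1.69-fold above HF in HF + SFC but below the array medians. Slc25a15, the ornithine carrier, had 1534, 1435 and 1682, and its second probe set had the opposite order (107, 116 and 89.3). Slc25a22, a glutamate carrier, had 654, 788 and 559, the lowest ratio of this group in HF + SFC against HF (log2 ratio -0.49). Slc25a29, a carrier of basic amino acids, had 484, 537 and 635, and its other 4 probe sets went both ways. Slc25a44, which takes up branched-chain amino acids, had 786, 721 and 730 with log2 ratios of -0.13 in HF and -0.11 in HF + SFC against Control. Its second probe set, at 471, 498 and 518, went the other way in both. Slc25a2 (69.8, 77.2 and 64.5) and Slc25a18 (45.7, 45.5 and 42.0) were dim.

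The 8 carriers of nucleotides and cofactors were all above the array median and none reached 1.5-fold in either comparison. Slc25a32, which takes up folate and FAD, came nearest, with 243, 183 and 273 and a log2 ratio of 0.58 in HF + SFC against HF. Its 2 other probe sets had 176, 196 and 157 and 123, 101 and 152, lower on 1 and higher on the other in that comparison. Slc25a42, a coenzyme A carrier, had 638, 490 and 646, lowest in HF, and a dim probe set at 19.9, 50.6 and 21.8 that was highest there. Slc25a26, which takes up S-adenosylmethionine, had 1018, 897 and 1102, also lowest in HF, as was its second probe set (360, 324 and 351). Slc25a51, which takes up NAD, had 4591, 4342 and 4586, and 2740, 2652 and 2546 on its second probe set. The pyrimidine nucleotide carriers Slc25a33 (1231, 1078 and 1061) and Slc25a36 (2500, 2677 and 2483) went opposite ways in HF against Control on their brightest probe sets. The other probe sets of Slc25a36, at 435, 425 and 441 and at 365, 329 and 393, were lower in HF, as Slc25a33 was. Slc25a16 had 1703, 2033 and 1791, and Slc25a17, which sits in the peroxisomal membrane, had 163, 188 and 138.

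**Figure D4:**
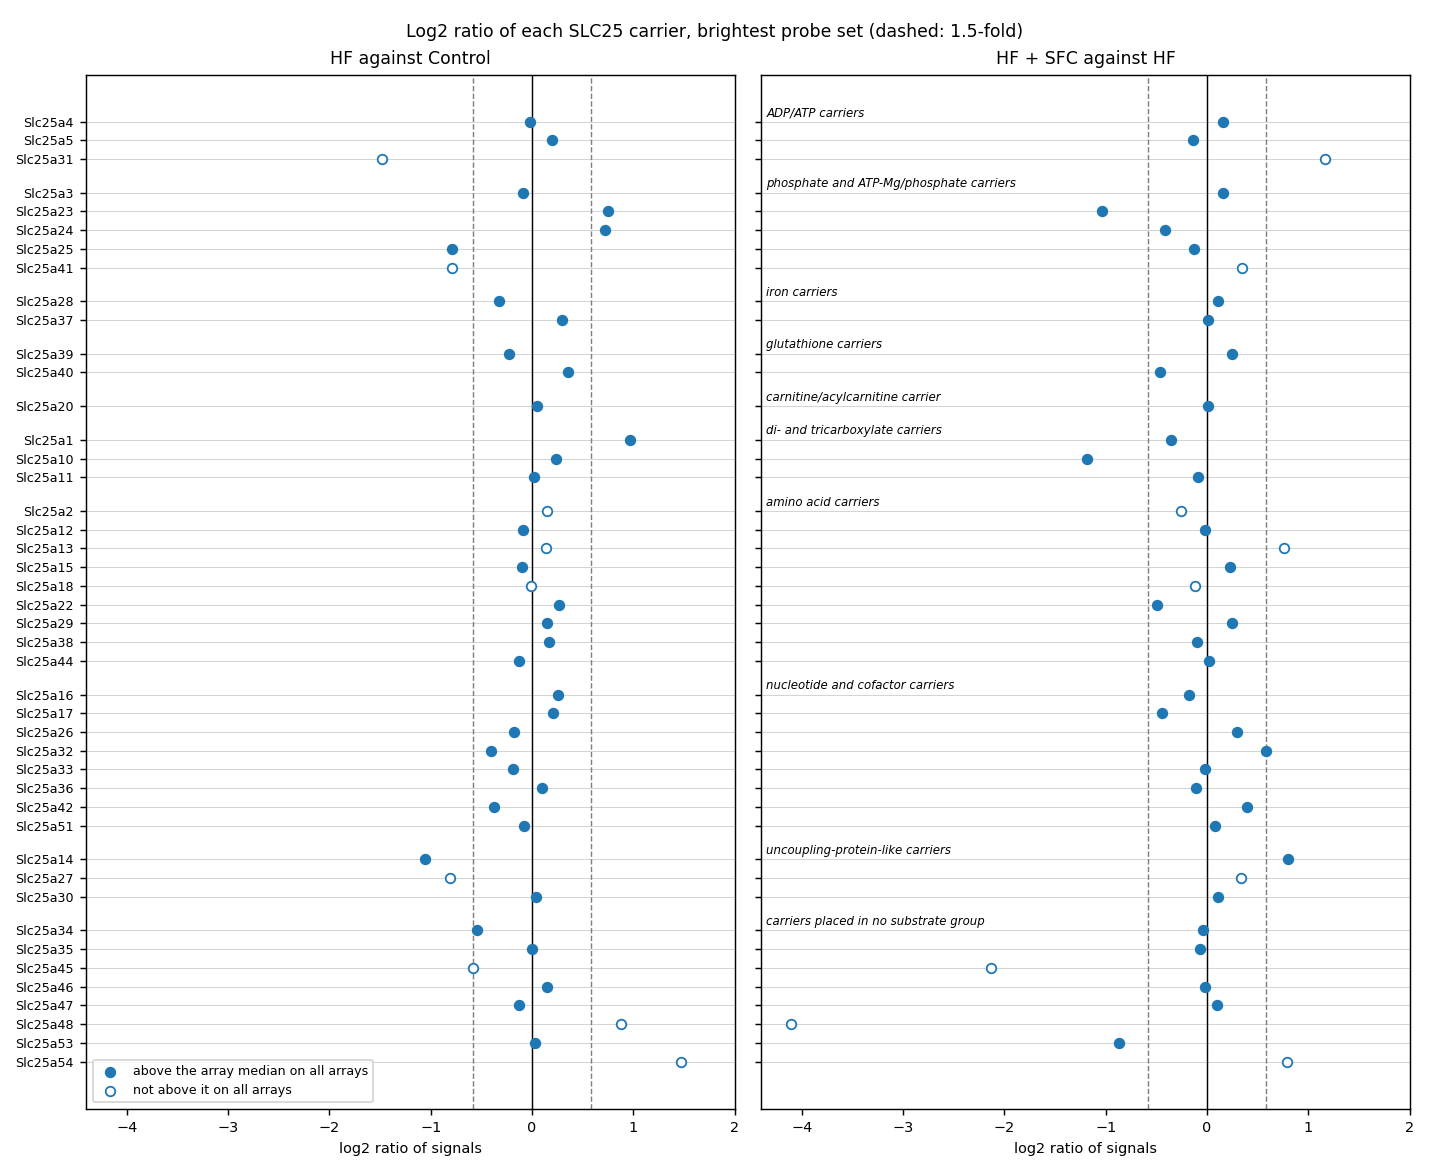
Log2 ratio of the brightest probe set of each carrier in HF against Control and in HF + SFC against HF, grouped by solute, with filled points above the array median on all arrays, open points for the other carriers and dashed lines at 1.5-fold. Open points lie farthest from 0, from -4.11 for Slc25a48 to 1.47 for Slc25a54, and filled points lie between -1.18 and 0.97.

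The carriers related to uncoupling proteins, named for their likeness to Ucp1, differed in level and in order. Slc25a14 had 160, 76.6 and 133, 2.08-fold below Control in HF and 1.73-fold above HF in HF + SFC, on its only probe set, with the HF signal near the array median and the others above it. Slc25a27 had 99.6, 56.8 and 71.6 on its brightest probe set, 1.75-fold lower in HF than in Control. Its next probe set was nearly as bright and opposite in order, at 67.4, 86.5 and 67.2. The other 2 read 56.1, 24.2 and 40.1, lowest in HF, and 13.2, 32.9 and 17.4, highest there. None of the 4 was above the array median on all arrays. Slc25a30 had 1168, 1196 and 1287, within a log2 ratio of 0.14 of Control, and its other probe sets above the array median read highest in HF (757, 873 and 741, and 630, 664 and 627).

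Among carriers placed in no substrate group, Slc25a46, an outer membrane protein that acts in mitochondrial shape, had 4014, 4460 and 4406. Slc25a34 had 721, 495 and 483, below Control by 1.46-fold in HF and 1.49-fold in HF + SFC, just inside the 1.5-fold limit on its only probe set. Slc25a35 (221, 221 and 210) and Slc25a47 (247, 226 and 242) were nearly level. Slc25a53 had 158, 162 and 88.9, 1.82-fold below HF in HF + SFC, and 48.1, 47.6 and 57.6 on its dimmer probe set. The widest ratios came from dim probe sets: Slc25a48 at 42.8, 78.6 and 4.57, Slc25a45 at 121, 80.9 and 18.5, and Slc25a54 at 6.34, 17.6 and 30.3. Slc25a45 passed 1.5-fold in HF against Control by a narrow margin, with a log2 ratio of -0.59.

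Dimmer probe sets often disagreed with the brightest. Of 15 carriers with several probe sets above the array median, all their bright probe sets had 1 direction for 7 carriers in HF against Control and for 5 in HF + SFC against HF. Slc25a5, Slc25a26 and Slc25a46 were in both sets of carriers. The log2 ratios of the 2 brightest probe sets differed by a median of 0.19 and 0.16 in these comparisons, and by most for Slc25a25 (0.80 and 0.94). Among the 49 probe sets other than the brightest, 10 passed 1.5-fold upward and 2 downward in HF against Control, where 20.3% and 16.4% of such probe sets of all genes did. Between HF + SFC and HF, 6 passed upward and 10 downward, where 18.5% and 17.7% of such probe sets of all genes did. Most of these probe sets were not above the array median, 7 and 2 in the former comparison and 5 and 7 in the latter.

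Family members that carry other symbols and lay above the array median were Mtch1, Mtch2 and Ucp3. Ucp3, the uncoupling protein of skeletal muscle, had 5431, 3409 and 3229, below Control by 1.59-fold in HF and 1.68-fold in HF + SFC, and its second probe set had the same order (2750, 2108 and 1926). Mtch2, an outer membrane protein, had 3976, 9984 and 7936 on its brightest probe set (2.51-fold higher in HF than in Control), but 6383, 7093 and 6893 on one nearly as bright, and Mtch1 had 1192, 1216 and 1061. Of 16 other channels and transporters of mitochondrial membranes measured, HF was above Control for 8 and below it for 8, and HF + SFC was above HF for 9 and below it for 7 (median log2 ratio 0.04). In HF against Control, 3 of them passed 1.5-fold: Sfxn1 (138, 241 and 218) and Sfxn5 upward and Abcb10 (955, 631 and 746) downward. All 16 lay above the array median, where 4.12% of all genes passed upward and 2.32% downward. Sfxn1 and Sfxn5 lay inside the middle 95% of genes of like signal, and Abcb10 lay below it. In HF + SFC against HF none of the 16 passed 1.5-fold. The highest log2 ratio there was that of Sfxn4 (92.4, 72.4 and 107) and the lowest that of Sfxn5 (95.3, 161 and 120). Of 23 enzymes that work with the carriers, HF was above Control for 10 and below it for 13, and HF + SFC was above HF for 13 and below it for 10. In these 2 comparisons Otc, at 21.5, 16.0 and 10.2, was the one enzyme past 1.5-fold, in HF + SFC against HF. The mitochondrial aspartate aminotransferase Got2 of the malate-aspartate shuttle had 11831, 10145 and 11020, and its cytosolic form Got1 9622, 8032 and 8795, both lowest in HF.

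**Figure D5:**
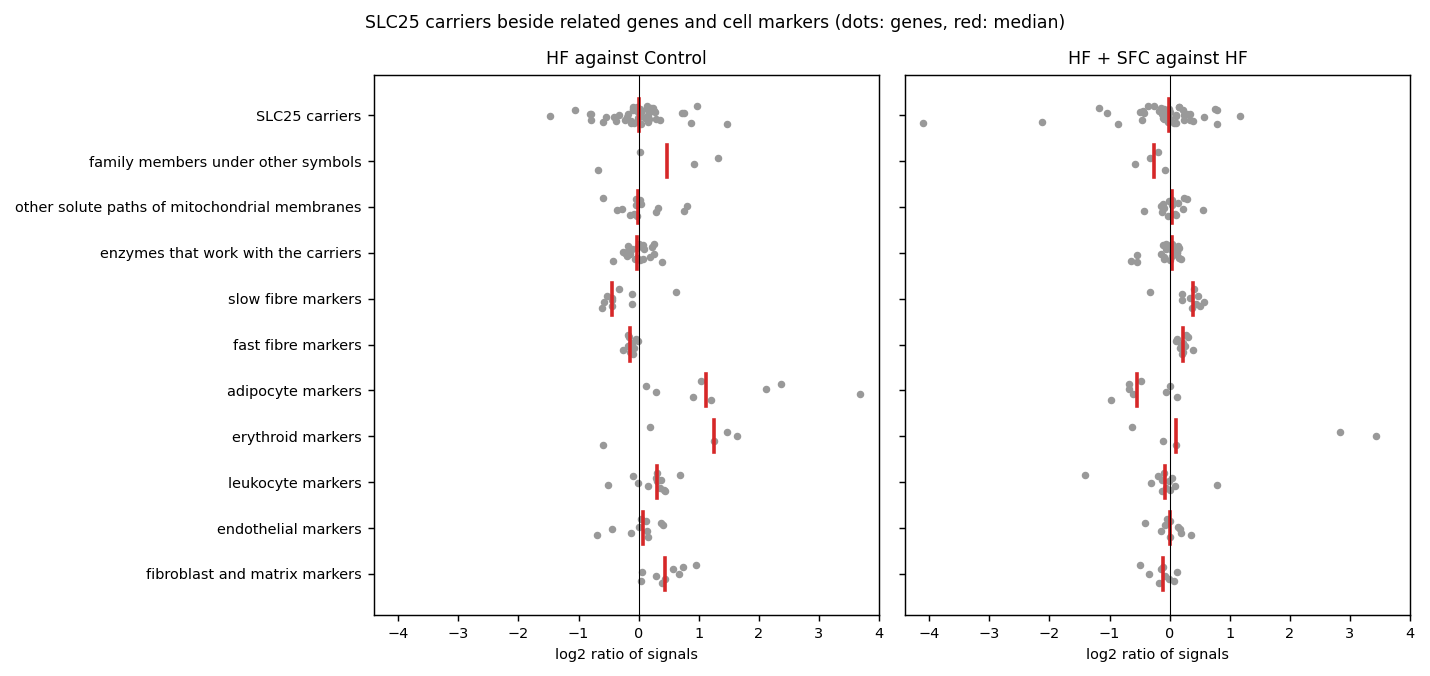
Log2 ratio of each gene (grey points) and the median of each list (red bars) for the SLC25 carriers, related mitochondrial genes and cell markers, in HF against Control and in HF + SFC against HF. The median of the carriers lies at 0.01 and -0.02, while that of adipocyte markers lies at 1.12 and -0.54 and that of slow fibre markers at -0.44 and 0.39.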

How the data were processed

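Gastrocnemius RNA of 3 diet groups was measured on Affymetrix mouse arrays, 1 per group, from biotin-labelled cRNA of pooled samples. Deposited values are intensities on a linear scale that the authors had made with MAS5, as the submitters' notes state, with version and settings not given in the sources used here. Each array had been scaled to the same level (mean 500.0 after trimming 2% from both tails). No detection calls were used, so the array median served as the limit for dim probe sets. MAS5 values of dim probe sets scatter widely on the log scale, and precision is limited by having 3 arrays.

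The array annotation gave 1 gene symbol to 34945 of 45101 probe sets, several to 932 and none to 9160, and 64 were controls. A probe set with several symbols, 1 of them Slc25a37, was left out. The gene IDs of all 44 carriers matched a RefSeq table of assembly GRCm38.p6. Log2 ratios were taken with no offset. All 44 carriers are accounted for, by a rule that names every member. Members, substrate groups and gene lists were chosen with earlier results of these data known, and the lists were written from textbook knowledge. As alternatives, probe sets of a gene were averaged, and median centring, quantile normalization, an offset of 50, removal of suffixed or dim probe sets, updated gene symbols (which added no carrier) and a 2-fold threshold were tried. A planned comparison of protein sequences was not made. Steps were tested on simulated data. Python 3.11.15, numpy 2.4.6, pandas 2.3.3 and matplotlib 3.10.9 were used.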

Additional observations from a re-analysis of the deposited data

How the results depend on the processing

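No paired analysis was possible because each group had 1 sample, and no replicate could be left out. Of 116 summary values recomputed under the alternatives, 99 stayed close to those reported (counts within 1.5 times, medians within 0.1 on the log2 scale, shares within the 95% Wilson interval). The 99 include all values under updated gene symbols, which added no carrier and so could not move them. The limit for shares is wide: 34.1% of carriers higher in HF + SFC against HF with the mean of all probe sets, in place of 47.7%, counted as close. Counts of carriers at 1.5-fold in HF against Control, 5 higher and 6 lower, were 2 and 2 with an offset of 50, 3 and 2 among genes above the array median, and 1 and 2 at 2-fold. In HF + SFC against HF the 4 higher were 0, 1 and 1 in these settings, and the 5 lower were 3 among genes above the median. The median of the phosphate carriers in HF against Control, -0.09, was 0.11 with the mean of all probe sets, 0.31 among genes above the median and -0.57 without _x_at, _s_at and _a_at probe sets. In HF + SFC against HF it was 0.036 and -0.28 in the first 2 settings, in place of -0.13. The median of the amino acid carriers in HF against Control, 0.14, was 0.017 after quantile normalization and 0.033 among genes above the median. Slc25a25 in HF against Control (-0.80) turned to 0.19 with the mean of all probe sets, and Slc25a27 (-0.81) to 0.36 without the suffixed probe sets. Values of single carriers had the other sign in 19 of 88 cases with the mean of all probe sets, 9 of 80 without the suffixed probe sets, 5 of 88 after quantile normalization and 6 of 88 after median centring. The 88 cases include both comparisons of the 21 carriers with 1 probe set, which the mean of all probe sets could not change. All 19 changes of sign thus fell among carriers with several probe sets. The causes were not tested, beyond the other probe sets given above.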
